A study of Mus musculus with 16 samples.

Results

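Hedgehog signalling was described through 9 genes that cover its ligand, receptors and mediators. Shh encodes the ligand Sonic hedgehog. Ptch1 encodes its receptor, Boc and Gas1 encode co-receptors, and Hhip encodes a membrane protein that binds and sequesters the ligand. Smo encodes the transducer Smoothened, and Gli1, Gli2 and Gli3 encode the transcription factors. The genes were chosen by symbol among 18194 genes with a probe set annotated to exactly 1 symbol. They had 24 probe sets, and the probe set with the highest mean over all 16 arrays stood for its gene.

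In the absence of ligand PTCH1 holds SMO inactive, and GLI3, with GLI2 to a lesser degree, is processed to a repressor. Ligand bound to PTCH1 with BOC, GAS1 or CDON releases SMO, and full-length GLI2 then activates targets that include Gli1, Ptch1 and Hhip. In skin, Sonic hedgehog from the epithelium of the growing hair follicle acts on the follicle's own cells and on the dermal papilla, and the pathway is needed for follicle growth.

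Whole back skin of female C57/B6 mice (written C57/B7 in the titles), an inbred strain with no engineered allele in the labels, was measured on Affymetrix arrays. Skin under topical tofacitinib was taken at day 5 from mice 7, 8 and 9 (n = 3), and skin under topical ruxolitinib at day 5 from mice 4 and 6 (n = 2). Skin under DMSO, the vehicle, was taken at day 5 from mice 2 and 3 (n = 2), and untreated skin at day 0 from mice 1 to 9 (n = 9). The mice were 8.5 weeks old at day 0, and application was daily for 4 days. All day-5 mice had already given a biopsy at day 0. Both drugs inhibit Janus kinases, which pass on signals of cytokine receptors. The sources used here give no doses, so the drugs could not be compared at matched doses. The labels of mouse 7 at day 5 disagree: the description says ruxolitinib, whereas title, source and treatment say tofacitinib, which was followed. Calls of hedgehog genes that rest on this array are given with and without it, except for Hhip.

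Values are on the log2 GCRMA scale. The 27 control probe sets that match no target centred on 1.70, and the highest of their values was 2.43. A probe set's value depends on its probes, so levels are compared between groups and not between genes. Differences come from a limma fit over 12082 genes whose log2 value exceeded 4 in at least 2 arrays, and mouse entered this fit as a random block. A gene passed at a Benjamini-Hochberg adjusted p under 0.05 over all genes tested. Of the 9 genes 8 were tested, and Hhip, at most 3.76, was not. Shh entered through inhibitor arrays alone, exceeding 4 in 2 of 3 tofacitinib and 2 of 2 ruxolitinib arrays, against 0 of 2 DMSO and 0 of 9 day-0 arrays. The labelled tissue was borne out by keratinocyte markers, with a mean of 5 basal genes between 10.75 and 12.17 on every array. Muscle markers were also high, with a mean of 8 genes between 12.66 and 13.52. The difference between 3' and 5' Gapdh control probe sets, a measure of RNA quality, lay between 0.78 and 0.98 on day-5 arrays and between 0.82 and 1.47 on day-0 arrays.

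Promoter windows are shown for a gene that fell in every day-5 group, Gas1, and for one that rose under both inhibitors, Gli2. Each runs 5' to 3' over the 250 bases before a RefSeq start, on the minus strand of GRCm38.p6, at chr13:60177536-60177785 for Gas1 and chr1:119053620-119053869 for Gli2. The Gas1 window adjoins the outer end of the gene span, at 60177535. The Gli2 window lies inside its gene span, which reaches 119054405, and so precedes an internal start. Capitals mark CG dinucleotides.
Gas1: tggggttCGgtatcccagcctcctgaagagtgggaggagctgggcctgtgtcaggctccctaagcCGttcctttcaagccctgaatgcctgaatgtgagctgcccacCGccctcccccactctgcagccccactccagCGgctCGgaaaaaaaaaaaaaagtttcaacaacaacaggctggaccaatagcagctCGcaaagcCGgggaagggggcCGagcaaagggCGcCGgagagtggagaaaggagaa
Gli2: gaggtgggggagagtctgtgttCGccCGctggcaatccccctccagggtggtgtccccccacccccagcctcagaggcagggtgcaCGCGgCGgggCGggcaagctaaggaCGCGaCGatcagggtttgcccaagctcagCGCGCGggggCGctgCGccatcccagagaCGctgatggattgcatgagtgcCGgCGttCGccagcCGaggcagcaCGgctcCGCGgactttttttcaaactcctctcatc
The Gas1 window held 10 CG dinucleotides and the Gli2 window 22, against a median of 6 over 32851 windows of the same length. Of the 9 genes 6 matched the table of windows (Gas1, Gli2, Gli3, Hhip, Ptch1 and Smo). Their windows were searched on both strands for GACCACCCA, the core sequence that GLI factors are known to bind, which overlaps no other motif searched. None of the 6 windows held it, exactly or with 1 mismatch. Exact matches stood in 0.225% of all windows, and matches with up to 1 mismatch in 5.79%. A missing match says only that these letters are not in this window. The windows of Gli2 and Ptch1 lie inside the gene span, and that of Hhip lies partly inside, so they do not precede the outermost start.

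**Figure D1:**
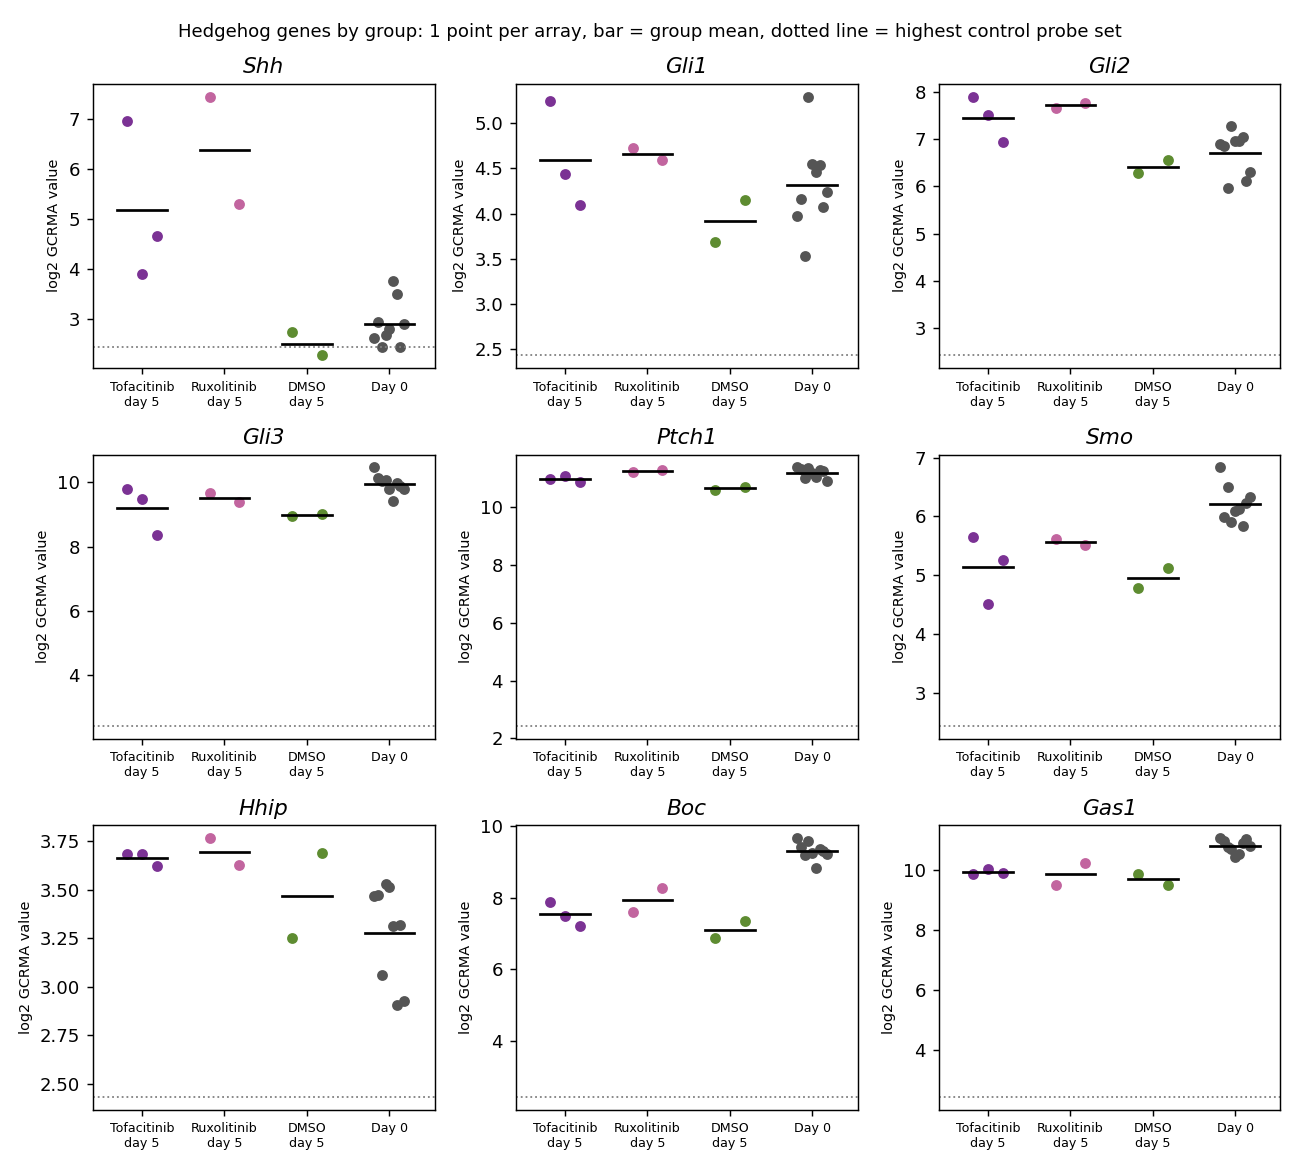
Log2 GCRMA values (y axis) of the 9 hedgehog genes by group (x axis), with 1 point per array, bars at group means and a dotted line at the highest control probe set (2.43). Shh was 3.90 or higher on the 5 inhibitor arrays and 3.76 or lower on all DMSO and day-0 arrays, while Boc, Gas1 and Smo were lower at day 5 in every group.

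Shh, the ligand gene, was close to the control level in untreated and vehicle-treated skin and clearly above it in inhibitor-treated skin. Its log2 values were 6.95, 3.90 and 4.65 under tofacitinib, 7.45 and 5.30 under ruxolitinib, and 2.73 and 2.27 under DMSO. At day 0 they ran from 2.43 to 3.76, with a median of 2.80. All 5 inhibitor arrays lay above all DMSO and day-0 arrays, although mouse 8 under tofacitinib exceeded the highest day-0 array only narrowly. In order, the group means were 6.37 ± 1.52 under ruxolitinib (SD, n = 2), 5.17 ± 1.59 under tofacitinib (n = 3), 2.89 ± 0.46 at day 0 (n = 9) and 2.50 ± 0.32 under DMSO (n = 2). The spread within the inhibitor groups exceeded the difference between their means, and the DMSO and day-0 arrays overlapped.

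Against day 0, Shh was 4.84-fold higher under tofacitinib, a log2 difference of 2.27 ± 0.51 (SE, limma adjusted p = 0.00241). Without mouse 7, the tofacitinib difference was 1.44 (limma adjusted p = 0.0163). Under ruxolitinib Shh was 10.9-fold higher than at day 0, a log2 difference of 3.45 ± 0.61 (limma adjusted p = 0.000657), and 2.27 without mouse 4 (limma adjusted p = 0.0393). The DMSO group stood at -0.37 ± 0.61 against day 0, with a 95% interval from -1.66 to 0.92 (limma adjusted p = 0.629). The 3 comparisons share the 9 day-0 arrays. Since 1 of 2 DMSO arrays and 1 of 9 day-0 arrays did not exceed the highest control value, the folds are uncertain. Shh was tested only because its inhibitor arrays passed the filter, so the filter was not independent of these differences. Without the filter, the calls of both inhibitors against day 0 still passed in limma.

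The design also allows the question of whether the inhibitors themselves, beyond the vehicle and the earlier biopsy, went with a different Shh level. Over the mean of both inhibitors, Shh was 9.40-fold higher than under DMSO, a log2 difference of 3.23 ± 0.66 (limma adjusted p = 0.0411). Under ruxolitinib alone it was 14.1-fold higher than under DMSO, with a log2 difference of 3.82 ± 0.79 (limma adjusted p = 0.0453). Tofacitinib alone stood 2.64 ± 0.72 above DMSO, with an interval from 1.11 to 4.18, and did not pass (limma adjusted p = 0.171). The calls against DMSO were fragile with 2 vehicle mice. When mouse was a fixed block, the adjusted p was 0.519 for both inhibitors and 0.265 for ruxolitinib in limma, and without the filter it was 0.0530 and 0.0575. Leaving out ruxolitinib mouse 4 gave 2.63 for both inhibitors (limma adjusted p = 0.0936) and 2.63 for ruxolitinib (limma adjusted p = 0.229), and the calls were also lost without DMSO mouse 2 (limma adjusted p = 0.213 and 0.186) or mouse 3 (0.176 and 0.152). Fitted on only the groups compared, the adjusted p was 0.220 for both inhibitors and 0.114 for ruxolitinib in limma. Without tofacitinib mouse 7, both inhibitors together stood 2.76 above DMSO (limma adjusted p = 0.0314).

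Each treated mouse can be set against its own first biopsy. Under tofacitinib Shh changed by 3.46, 1.47 and 1.76 log2 units in mice 7, 8 and 9, and under ruxolitinib by 4.78 and 1.54 in mice 4 and 6. Under DMSO it changed by -0.20 and -0.16 in mice 2 and 3. Thus Shh was higher than at day 0 in 5 of 5 inhibitor mice and little changed in 2 of 2 DMSO mice. Neither value of DMSO mouse 3 exceeded the highest control value, so the sign of its change carries no measurement. The size of the rise varied widely between mice. These values come from 1 probe set. The other Shh probe set lay between 1.91 and 2.35 on all 16 arrays, none above the highest control value, and carries no measurement in either direction.

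**Figure D2:**
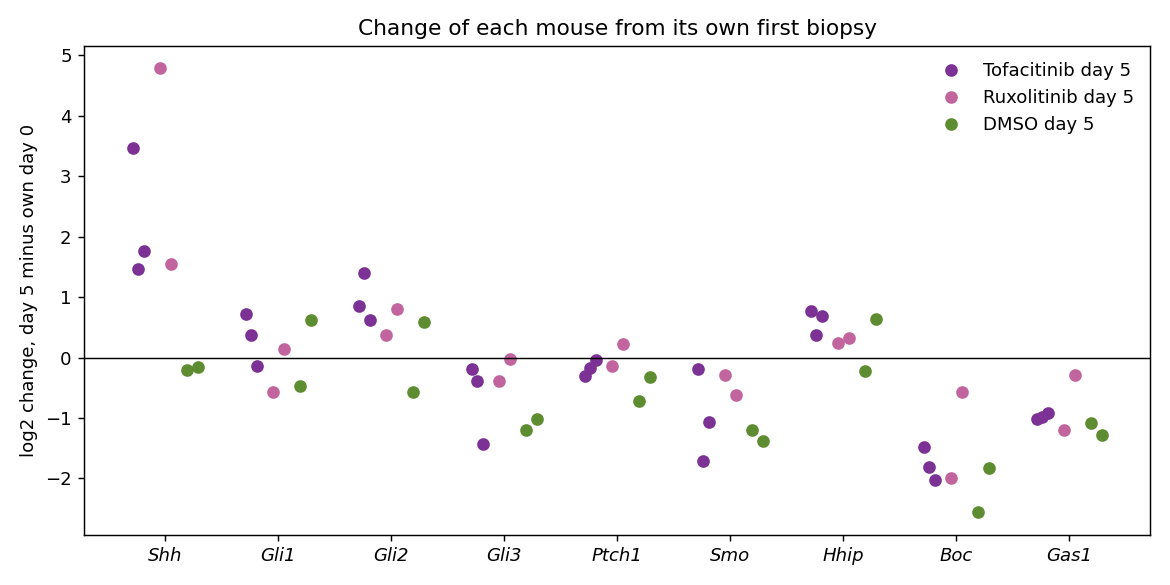
Log2 change from the day-0 to the day-5 biopsy of the same mouse (y axis) for the 9 hedgehog genes (x axis), with 1 point per mouse, coloured by group. Shh was higher in the 5 inhibitor mice (1.47 to 4.78) and near 0 in the 2 DMSO mice, whereas Boc, Gas1, Gli3 and Smo were lower in all 7 mice.

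Some hair matrix and proliferation genes were, like Shh, higher under the inhibitors than under DMSO, but neither list followed Shh over all 4 groups. Of 10 hair matrix and shaft markers 4 were tested. Their mean lay between 6.42 and 7.24 under tofacitinib, 6.71 and 7.21 under ruxolitinib, 5.49 and 5.65 under DMSO, and 6.14 and 6.80 at day 0. Hoxc13, a transcription factor of the hair matrix and shaft, was higher under both inhibitors than under DMSO by 1.59 ± 0.24 (limma adjusted p = 0.00822, and 0.398 under the fixed block). The mean of 4 proliferation genes lay between 7.22 and 9.10 under tofacitinib, 8.35 and 9.45 under ruxolitinib, 6.88 and 7.09 under DMSO, and 8.39 and 9.59 at day 0. Mki67, a marker of cycling cells, was higher under both inhibitors than under DMSO by 1.46 ± 0.29 (limma adjusted p = 0.0370, and 0.471 with the fixed block). Hoxc13 and Mki67 were each the 1 of 4 tested genes of their list that passed there, where 0.836% of all genes tested rose. All 4 tested genes of each list were above 0 there, as were 50.7% of all genes tested. At an unadjusted p under 0.05 in limma were 3 of 4 hair matrix and 4 of 4 proliferation genes, beside 1682 of 12082 genes. Unlike Shh, both lists overlapped between day 0 and the inhibitor groups, and 3 of 4 proliferation genes fell under tofacitinib against day 0. Krt18, the 1 of 4 Merkel cell markers tested, ranged from 2.80 to 4.69 under tofacitinib, 3.47 to 4.23 under ruxolitinib, 4.03 to 4.28 under DMSO and 2.17 to 2.81 at day 0, while Atoh1, which defines these cells, was at control level on all arrays. Of 9 dermal papilla markers 5 were tested. Against day 0, 3 rose and 1 fell under each inhibitor, and 1 rose and 1 fell under DMSO. Of all genes tested, 22.7%, 12.5% and 22.2% rose and 27.4%, 21.4% and 28.9% fell under tofacitinib, ruxolitinib and DMSO. For both inhibitors against DMSO, 0 of the 5 passed in limma (2 at an unadjusted p under 0.05). The part of these cell populations in the Shh difference was not tested. In bulk skin, a change in the number of cells of a type and a change in the RNA per cell cannot be told apart.

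**Figure D3:**
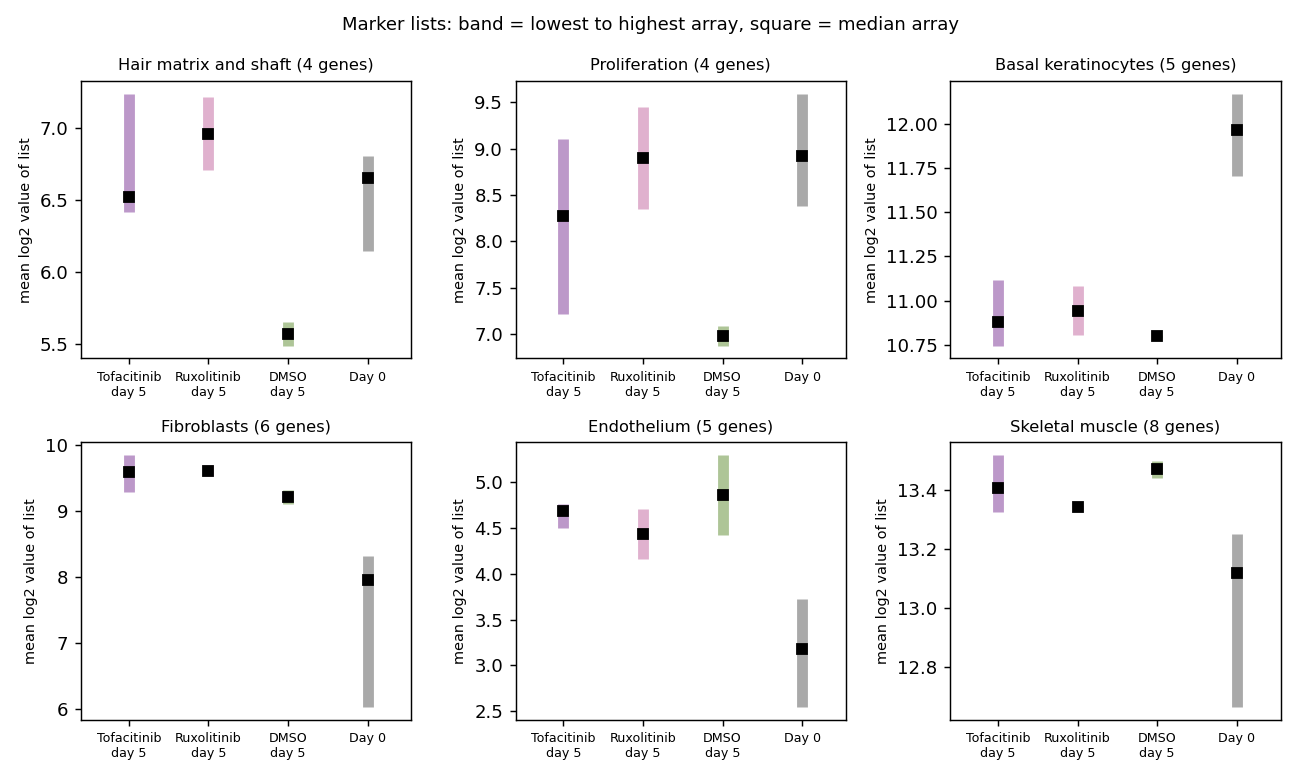
Mean log2 value of 6 marker lists (y axes) by group (x axes), with bands from the lowest to the highest array and squares at the median array. The hair matrix and proliferation lists were lowest under DMSO, and the basal keratinocyte list was lower in all day-5 groups (10.75 to 11.12) than at day 0 (11.71 to 12.17).

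Boc and Gas1 fell in all 3 day-5 groups, whereas Ptch1 passed under DMSO alone. Boc, a co-receptor, had log2 values of 7.89, 7.50 and 7.21 under tofacitinib, 7.60 and 8.27 under ruxolitinib, and 6.86 and 7.36 under DMSO. At day 0 it ranged from 8.84 to 9.66 with a median of 9.31, above every day-5 array. It fell by 1.78 ± 0.19 under tofacitinib (limma adjusted p = 7.3e-06), by 1.37 ± 0.22 under ruxolitinib (limma adjusted p = 0.000405) and by 2.21 ± 0.22 under DMSO (limma adjusted p = 5.62e-06). Without mouse 7 the tofacitinib difference of Boc was -1.95 (limma adjusted p = 1.39e-05). The fixed block ended the ruxolitinib call (limma adjusted p = 0.0637). A second Boc probe set had differences from day 0 of -1.55, -1.57 and -2.06 in the same order, and the third was at control level.

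Gas1, a membrane-anchored co-receptor, had log2 values of 9.87, 10.02 and 9.88 under tofacitinib, 9.50 and 10.23 under ruxolitinib, and 9.86 and 9.49 under DMSO. The day-0 arrays ran from 10.42 to 11.04 with a median of 10.79 and did not overlap with those of day 5. Gas1 fell by 0.87 ± 0.16 under tofacitinib (limma adjusted p = 0.000555; -0.86 without mouse 7, limma adjusted p = 0.00201) and by 1.12 ± 0.19 under DMSO (limma adjusted p = 0.000289). Under ruxolitinib it fell by 0.90 ± 0.19 (limma adjusted p = 0.00220). This last call was lost with the fixed block (limma adjusted p = 0.0869) and without ruxolitinib mouse 4 (-0.51, limma adjusted p = 0.110). Both other Gas1 probe sets were lower in every day-5 group, by 1.05 to 1.59 log2 units in size.

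Markers of several cell types moved with these falls against day 0. The mean of 6 fibroblast markers lay between 9.28 and 9.85 under tofacitinib, 9.53 and 9.69 under ruxolitinib, and 9.10 and 9.31 under DMSO, above the day-0 range of 6.03 to 8.32. Of the 6 fibroblast markers 4 rose in each day-5 group, and of 5 endothelial markers 5 rose in each. Of 5 basal keratinocyte markers 5 fell in each. Of 8 skeletal muscle markers 5, 1 and 4 rose under tofacitinib, ruxolitinib and DMSO. Of 7 bulge and germ stem cell markers 4, 3 and 4 fell in that order. Among all genes tested, 22.7%, 12.5% and 22.2% rose and 27.4%, 21.4% and 28.9% fell. The mean of the 5 endothelial markers was low, between 2.54 and 3.73 at day 0, under the filter value of 4. It lay between 4.16 and 5.30 on day-5 arrays. Some of these markers may thus have passed the filter only through day-5 arrays, and nothing is read from their count. No marker of the lists in this paragraph was at control level on all arrays. The part of these cell types in the falls of Boc, Gas1 and Smo was not tested.

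Ptch1, both receptor and target, varied little. It had log2 values of 10.98, 11.07 and 10.87 under tofacitinib, 11.22 and 11.27 under ruxolitinib, and 10.59 and 10.70 under DMSO, against 10.91 to 11.37 (median 11.24) at day 0. Both DMSO arrays were below all others, and the inhibitor arrays lay within or just below the day-0 range. Ptch1 fell by 0.55 ± 0.13 under DMSO (limma adjusted p = 0.00296), a call lost with the fixed block (limma adjusted p = 0.0768) and without DMSO mouse 2 (limma adjusted p = 0.0521). Its differences from day 0 were -0.21 ± 0.11 under tofacitinib (limma adjusted p = 0.113) and 0.05 ± 0.13 under ruxolitinib (limma adjusted p = 0.779). Against DMSO, both inhibitors together stood at 0.47 ± 0.14 (limma adjusted p = 0.130). The remaining Ptch1 probe sets were low or at control level.

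Hhip, itself a target of the pathway, stayed just above the control level. Its values were 3.68, 3.68 and 3.62 under tofacitinib, 3.76 and 3.63 under ruxolitinib, 3.25 and 3.69 under DMSO, and 2.91 to 3.53 (median 3.32) at day 0. The 5 inhibitor arrays were above all day-0 arrays, by small margins, and overlapped with DMSO. Under the filter it was not tested. Without the filter, over 18194 genes, Hhip stood 0.40 ± 0.15 above day 0 under tofacitinib (limma adjusted p = 0.0439), 0.41 ± 0.17 under ruxolitinib (0.0991) and 0.19 ± 0.17 under DMSO (0.413). The tofacitinib difference of Hhip was fitted neither without mouse 7 nor with the fixed block. Mouse 7 had the largest change from its own day 0 in that group (0.78). The other 3 Hhip probe sets were mostly at control level.

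Smo, the transducer, had log2 values of 5.64, 4.52 and 5.26 under tofacitinib, 5.61 and 5.51 under ruxolitinib, and 4.79 and 5.12 under DMSO. At day 0 it ran from 5.84 to 6.83 with a median of 6.12, again above every day-5 array. Smo fell by 1.06 ± 0.22 under tofacitinib (limma adjusted p = 0.00142; -1.33 without mouse 7, limma adjusted p = 0.000323) and by 1.25 ± 0.26 under DMSO (limma adjusted p = 0.00131). Under ruxolitinib the difference was -0.63 ± 0.26, which did not pass (limma adjusted p = 0.0746). It did pass when the ruxolitinib and day-0 arrays were fitted alone (limma adjusted p = 0.0364). A lower second probe set differed from day 0 by -1.49, -0.97 and -1.38 under tofacitinib, ruxolitinib and DMSO. On that probe set day-0 mouse 1, at 5.30, stood apart from the next array at 4.21.

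The 3 transcription factor genes differed in direction. Gli2, the main activator, had log2 values of 7.90, 7.52 and 6.93 under tofacitinib, 7.65 and 7.77 under ruxolitinib, and 6.28 and 6.56 under DMSO, against 5.96 to 7.28 (median 6.89) at day 0. Both ruxolitinib arrays exceeded all day-0 arrays, as did 2 of 3 tofacitinib arrays. Gli2 rose by 0.76 ± 0.26 under tofacitinib (limma adjusted p = 0.0247, and 0.0847 without mouse 7) and by 0.96 ± 0.31 under ruxolitinib (limma adjusted p = 0.0250, and 0.261 with the fixed block). The tofacitinib call was also lost without mouse 8 (limma adjusted p = 0.0932), and the ruxolitinib call without mouse 4 (0.106) or mouse 6 (0.189). Under DMSO Gli2 stood at -0.26 ± 0.31 (limma adjusted p = 0.487). A second probe set differed from day 0 by 0.69 under tofacitinib, 0.90 under ruxolitinib and -0.30 under DMSO. Against DMSO, both inhibitors together stood at 1.12 ± 0.33 with no overlap of arrays, and this did not pass (limma adjusted p = 0.129).

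Gli3, the main repressor, had log2 values of 9.78, 9.48 and 8.35 under tofacitinib, 9.66 and 9.38 under ruxolitinib, and 8.94 and 9.02 under DMSO, against 9.41 to 10.45 (median 9.97) at day 0. The lowest array was tofacitinib mouse 9, and the inhibitor groups overlapped with day 0. Gli3 fell by 0.98 ± 0.28 under DMSO (limma adjusted p = 0.00984), although the call was lost without either DMSO mouse (limma adjusted p = 0.0994 and 0.0689). It fell by 0.73 ± 0.24 under tofacitinib (limma adjusted p = 0.0193, and 0.0699 with the fixed block). Without mouse 9, this difference was -0.31 (limma adjusted p = 0.235), and without mouse 7 the fall passed (limma adjusted p = 0.00386). Under ruxolitinib it was -0.40 ± 0.28 (limma adjusted p = 0.275).

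Gli1, the most widely used readout of pathway activity, did not pass in any comparison. It had log2 values of 5.25, 4.44 and 4.09 under tofacitinib, 4.72 and 4.60 under ruxolitinib, 3.69 and 4.15 under DMSO, and 3.53 to 5.30 (median 4.23) at day 0. The day-0 range covered all day-5 arrays. Its differences from day 0 were 0.28 ± 0.29 under tofacitinib (95% interval -0.33 to 0.90, limma adjusted p = 0.422), 0.29 ± 0.34 under ruxolitinib (-0.43 to 1.01, limma adjusted p = 0.516) and -0.35 ± 0.34 under DMSO (-1.07 to 0.37, limma adjusted p = 0.405). The intervals leave room for changes of up to about 1 log2 unit. Only 1 probe set measured Gli1.

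**Figure D4:**
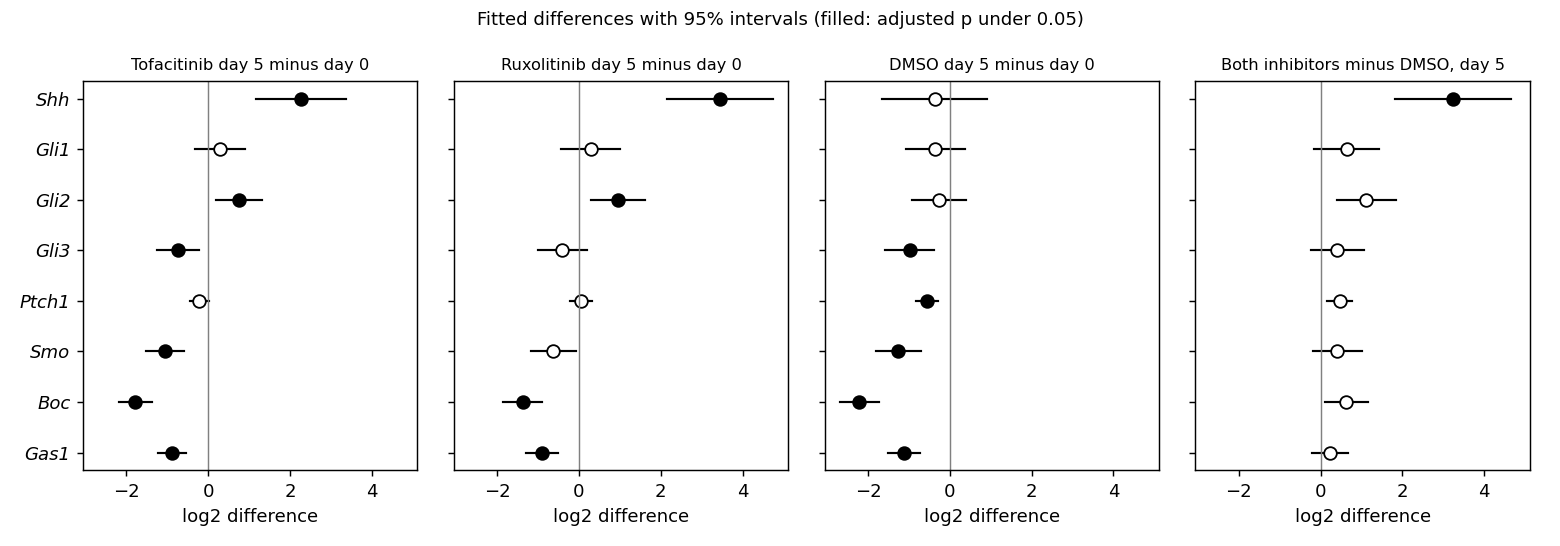
Fitted log2 differences (x axes) with 95% intervals for the 8 tested hedgehog genes (y axis) in 4 comparisons, with filled points where the adjusted p was under 0.05. Boc and Gas1 fell in all 3 day-5 groups, Shh and Gli2 rose under both inhibitors, and Shh alone passed against DMSO (3.23). Shh was tested only because its inhibitor arrays passed the filter, and without the filter this call against DMSO was lost.

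Counted over the 8 tested genes, 2 rose, 4 fell and 2 did not pass under tofacitinib against day 0, while 22.7% of all genes tested rose and 27.4% fell. Under ruxolitinib 2 rose, 2 fell and 4 did not pass, beside 12.5% and 21.4% of all genes. Under DMSO 0 rose, 5 fell and 3 did not pass, beside 22.2% and 28.9% of all genes. The medians of the 8 log2 differences were -0.47 under tofacitinib, -0.18 under ruxolitinib and -0.76 under DMSO, against -0.02, -0.03 and -0.05 over all genes tested. Many genes changed between the biopsies in every group, so the background for the shares that rose in the inhibitor groups, 2 of 8, is high. Of these 2 genes, Shh was tested only because its inhibitor arrays passed the filter, so nothing is read from these shares. The shares that fell under DMSO, 5 of 8, and under tofacitinib, 4 of 8, stood above their backgrounds of 28.9% and 27.4%. Under ruxolitinib 2 of 8 fell, beside 21.4%. These differences from the background were not tested.

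Against DMSO, the background was far smaller. The 1 gene called, Shh, was tested only because its inhibitor arrays passed the filter, and without the filter it did not pass, so nothing is read from its count. With ruxolitinib 1 of 8 genes rose, Shh, where 0.406% of all genes tested rose, and with both inhibitors again 1 of 8, Shh, where 0.836% rose. With tofacitinib 0 of 8 passed in limma (3 of 8 at an unadjusted p under 0.05), where 0.166% of all genes passed in either direction. The log2 differences of the 8 genes from DMSO ran from 0.20 to 2.64 under tofacitinib and from 0.22 to 3.82 under ruxolitinib. Their medians were 0.38 and 0.63, against 0.0084 and -0.00096 over all genes. All 8 were above 0 in both, as were 51.1% and 49.9% of all genes tested, and the same 2 DMSO arrays serve both comparisons. Signs turned under alternatives for Gli3 and Smo under tofacitinib (-0.16 and -0.10 on other probe sets), and under ruxolitinib for Gli1 (-0.29 with the fixed block) and Gas1 (-0.15 without mouse 6).

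Tofacitinib and ruxolitinib were not separated by these genes. The 2 drugs share a pyrrolopyrimidine core and differ in the ring joined to it. None of the 8 genes passed between them in limma (0 at an unadjusted p under 0.05), where 0.0248% of all genes passed. For Shh the difference of tofacitinib minus ruxolitinib was -1.18 ± 0.72, with a 95% interval from -2.71 to 0.35 (limma adjusted p = 0.898). For Gli2 it was -0.20 with an interval from -0.97 to 0.57, and for Ptch1 -0.26 with an interval from -0.59 to 0.06. With 3 and 2 arrays, and doses not given, these intervals do not show that the drugs acted alike. Without mouse 7, whose drug label is disputed, 2 of 8 genes had an unadjusted p under 0.05. These were Shh, at -1.97 with an interval from -3.25 to -0.68 (limma adjusted p = 0.232), and Smo, at -0.73 with an interval from -1.36 to -0.10 (limma adjusted p = 0.329).

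Other genes of the pathway were taken from a list of 37, of which 27 were tested. Under tofacitinib against day 0, 4 of these rose and 10 fell, beside 22.7% and 27.4% of all genes. Under ruxolitinib 2 rose and 9 fell (12.5% and 21.4% of all genes), and under DMSO 1 rose and 10 fell (22.2% and 28.9%). Scube3, counted among the rises under both inhibitors, was tested only because inhibitor arrays passed the filter. Without tofacitinib mouse 9, 2 rose under tofacitinib, and without ruxolitinib mouse 4 or mouse 6, 6 fell under ruxolitinib. Without ruxolitinib mouse 4, 1 rose there, and without DMSO mouse 3, 0 rose under DMSO in limma. Their median differences were -0.17, -0.20 and -0.31. Against DMSO at day 5, 0 of 27 passed in limma with tofacitinib (2 at an unadjusted p under 0.05), with ruxolitinib (5) or with both (5), and 0 passed between the drugs (2).

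Mycn, which encodes a transcription factor that hedgehog signalling is known to induce in some tissues, followed Shh in part. Its log2 values were 8.05, 5.69 and 6.77 under tofacitinib, 7.47 and 8.25 under ruxolitinib, 5.60 and 6.18 under DMSO, and 4.45 to 5.85 (median 4.86) at day 0. The highest arrays were those of ruxolitinib mouse 6 and tofacitinib mouse 7, and tofacitinib mouse 8 lay within the day-0 range. Mycn rose by 1.82 ± 0.39 under tofacitinib (limma adjusted p = 0.00173) and by 2.79 ± 0.46 under ruxolitinib (limma adjusted p = 0.000435). The DMSO group stood at 0.88 ± 0.46 (limma adjusted p = 0.122), and both inhibitors stood 1.42 ± 0.50 above DMSO (limma adjusted p = 0.207). A second Mycn probe set, at most 4.26, differed from day 0 by -0.08, -0.34 and -0.42 under tofacitinib, ruxolitinib and DMSO, so the rise rests on 1 probe set.

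The other cell cycle genes among the listed targets moved against Mycn. Ccnd1, encoding cyclin D1, fell by 1.18 ± 0.19 under tofacitinib, 0.90 ± 0.23 under ruxolitinib and 1.34 ± 0.23 under DMSO. Ccnd2, encoding cyclin D2, fell by 1.12 ± 0.15, 1.01 ± 0.18 and 1.47 ± 0.18 in the same order. Limma adjusted p-values of these falls ran from 2.45e-05 to 0.00734, and under ruxolitinib both calls were lost with the fixed block (0.149 for Ccnd1 and 0.0826 for Ccnd2). Sox9, a transcription factor of the hair follicle, fell by 0.86 ± 0.21 under tofacitinib (limma adjusted p = 0.00404) and by 0.78 ± 0.25 under ruxolitinib (0.0249), calls lost with the fixed block (0.0611 and 0.171). Under DMSO it stood at -0.59 ± 0.25 (limma adjusted p = 0.0589).

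Of the 4 tested genes for ligands and their release, 2 fell and 1 rose under each inhibitor, and 3 fell and 0 rose under DMSO. Beside these, 27.4% of all genes fell and 22.7% rose under tofacitinib, 21.4% and 12.5% under ruxolitinib, and 28.9% and 22.2% under DMSO. The gene that rose, Scube3, was tested only because inhibitor arrays passed the filter, so nothing is read from its count. Scube2, whose secreted product helps to release lipid-modified ligand, had log2 values of 4.04, 3.11 and 3.75 under tofacitinib, 3.34 and 3.84 under ruxolitinib, and 3.64 and 4.04 under DMSO, against 5.05 to 6.27 (median 5.84) at day 0. All day-5 arrays lay below all day-0 arrays. Scube2 fell by 2.21 ± 0.23, 2.20 ± 0.27 and 2.01 ± 0.27 under tofacitinib, ruxolitinib and DMSO (limma adjusted p = 6.41e-06, 5.42e-05 and 5.97e-05). Cdon, a co-receptor related to Boc, fell by 1.25 ± 0.13 under tofacitinib, 0.86 ± 0.16 under ruxolitinib and 1.13 ± 0.16 under DMSO (limma adjusted p = 7.62e-06, 0.000932 and 7.42e-05, the ruxolitinib call being lost with the fixed block at 0.0651). Disp1, the transporter that releases ligand from the producing cell, fell by 0.67 ± 0.17, 0.75 ± 0.20 and 0.63 ± 0.20 (limma adjusted p = 0.00419, 0.00880 and 0.0152, the DMSO call being lost with the fixed block at 0.213).

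SMO acts at the primary cilium. Of 17 tested ciliary and cytoplasmic regulators, 4 fell and 2 rose under tofacitinib, 3 fell and 0 rose under ruxolitinib, and 4 fell and 1 rose under DMSO, and most did not pass. Of all genes tested, 27.4% fell and 22.7% rose under tofacitinib, 21.4% and 12.5% under ruxolitinib, and 28.9% and 22.2% under DMSO. None of the regulator counts stood above the share of all genes in its group. Efcab7 and Iqce, which anchor a ciliary complex downstream of SMO, fell by 1.10 ± 0.16 and 1.08 ± 0.20 under tofacitinib, 0.93 ± 0.19 and 1.12 ± 0.23 under ruxolitinib, and 1.48 ± 0.19 and 1.68 ± 0.23 under DMSO. The largest limma adjusted p of the 6 was 0.00219, and under ruxolitinib the fixed block ended both calls (0.0781 for Efcab7 and higher for Iqce). A second Iqce probe set, at most 5.75, differed from day 0 by only -0.03, -0.18 and -0.49 under tofacitinib, ruxolitinib and DMSO. The size of the Iqce fall thus rests on 1 probe set. Tulp3, which carries receptors into the cilium, fell by 0.69 ± 0.16 under tofacitinib, 0.79 ± 0.19 under ruxolitinib and 0.58 ± 0.19 under DMSO (limma adjusted p = 0.00321, 0.00576 and 0.0207), and the calls under ruxolitinib and DMSO were lost with the fixed block (0.0650 and 0.0609).

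Besides Mycn, the rises were few, and these genes are named after their values were seen. Scube3, a relative of Scube2, rose by 0.80 ± 0.25 under tofacitinib (limma adjusted p = 0.0167) and 0.95 ± 0.30 under ruxolitinib (0.0227, and 0.123 with the fixed block), with -0.28 ± 0.30 under DMSO (0.453). Its values were low, at most 4.70. They exceeded 4 only on tofacitinib mouse 7 (4.46) and ruxolitinib mouse 4 (4.70). Like Shh, Scube3 was thus tested only through inhibitor arrays, and nothing is read from its calls. Spop, an adaptor of a ubiquitin ligase that acts on GLI proteins, rose by 0.41 ± 0.12 under tofacitinib (limma adjusted p = 0.0145) and by 0.42 ± 0.15 under DMSO (0.0273), calls lost with the fixed block (0.0969 and 0.152). Btrc, part of the ligase that starts GLI3 processing, rose by 0.60 ± 0.17 under tofacitinib (limma adjusted p = 0.0103), where its other probe set above 4 stood at -0.14.

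Leaving out single day-5 arrays ended some of these calls against day 0. Under tofacitinib the call was lost for Scube3 without mouse 7 (limma adjusted p = 0.0656), and for Spop (0.147) and Btrc (0.0966) without mouse 9. Under ruxolitinib it was lost without mouse 4 for Ccnd1 (limma adjusted p = 0.121), Efcab7 (0.0606), Scube3 (0.435) and Sox9 (0.281), and without mouse 6 for Disp1 (0.101), Tulp3 (0.173) and Sox9 (0.0513). Under DMSO it was lost for Disp1 without mouse 2 (limma adjusted p = 0.265), for Tulp3 without mouse 2 or 3 (0.132 and 0.124) and for Spop without mouse 3 (0.572). Without tofacitinib mouse 7, Mycn stood 1.32 above day 0 under tofacitinib (limma adjusted p = 0.00988).

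**Figure D5:**
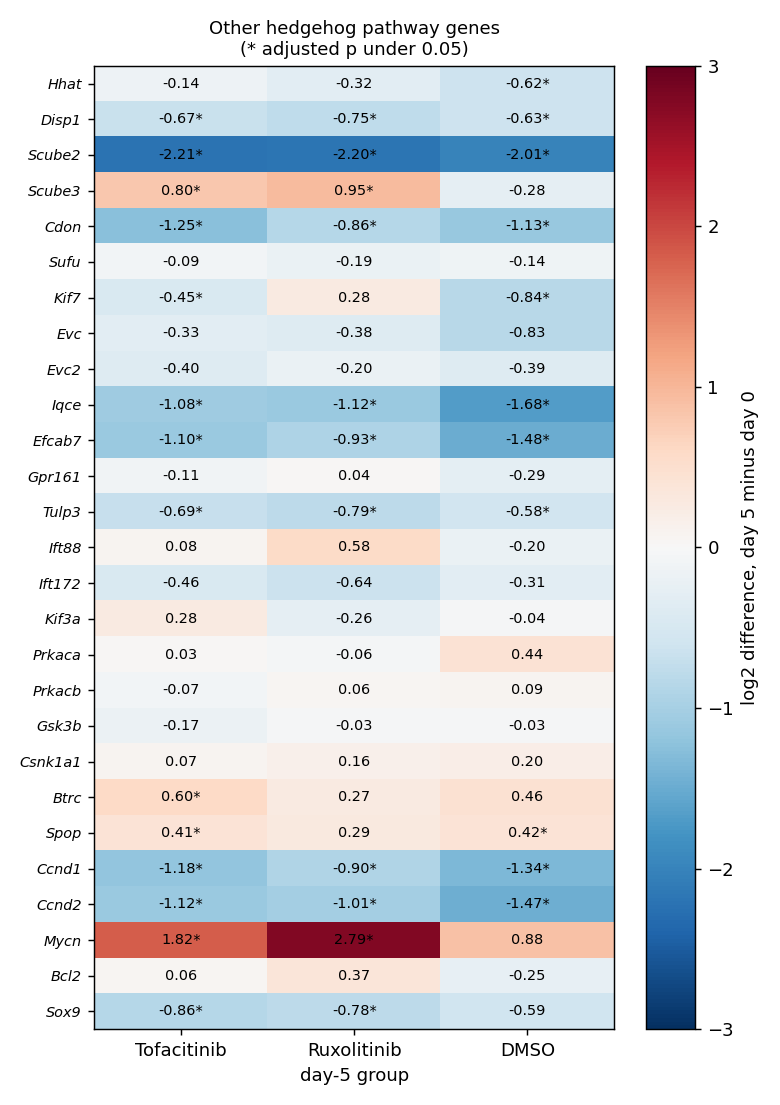
Log2 differences from day 0 of the 27 tested pathway genes outside the 9 (rows) under tofacitinib, ruxolitinib and DMSO (columns), coloured on a scale from blue (lower) to red (higher), with a star where the adjusted p was under 0.05. Mycn stood highest under both inhibitors (1.82 and 2.79), and Scube2 lowest in all 3 groups (-2.21, -2.20 and -2.01).

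Among the other ligands, Dhh, encoding Desert hedgehog, was low. Its log2 values were 2.97, 2.93 and 2.59 under tofacitinib, 3.42 and 4.00 under ruxolitinib, and 4.57 and 3.94 under DMSO, against 1.67 to 3.63 at day 0. Both DMSO arrays were thus above all day-0 and tofacitinib arrays, unlike for Shh. Dhh did not pass the filter. Without the filter it stood 1.43 ± 0.44 above day 0 under DMSO (limma adjusted p = 0.0190), and both inhibitors together stood at -1.003 against DMSO (0.421). Ihh did not exceed the highest control value on any array, nor did Disp2 and Lrp2. Scube1, Stk36 and Foxf1 stayed under the filter, and Arl13b and Foxe1 were not analysed here.

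Genes with the group pattern most like that of a hedgehog gene were named by the distance between their 4 centred group means, over 4 groups. Nearest to Shh were Mtmr7 (distance 0.523 log2 units), Klk13 (0.602), Cpm (0.682), Pmel (0.810) and Mlana (0.858). Mtmr7 had group means of 6.18 under tofacitinib, 6.82 under ruxolitinib, 3.61 under DMSO and 3.91 at day 0. Pmel, which encodes the fibril protein of pigment granules, had 7.01, 7.09, 3.89 and 4.33 in the same order, and Mlana, another melanocyte gene, had 6.14, 6.55, 3.85 and 3.60. All 5 were thus high in both inhibitor groups and low in the others, as the choice required. Nearest to Gli1 were Wdr62, Ift74, Hmgb2, Ism1 and Wscd2 (0.0758 to 0.107), and nearest to Ptch1 were Dync2h1, Cyth3, Unc45a, H2ax and Orc6 (0.0321 to 0.0547).

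Within the 9 day-0 arrays, 10 relations between hedgehog genes were computed with exact permutation tests, and none passed. Shh and Gli1 had a Pearson r of 0.32 and a Spearman rho of 0.53 (exact permutation p = 0.387 and 0.148, adjusted over 10 relations 0.505 and 0.592), and r was 0.36 without the 2 arrays farthest from the median of Shh. Gli1 and Ptch1 had r of 0.36 and rho of 0.12 (exact permutation p = 0.351 and 0.776, adjusted 0.505 and 0.862), and r was -0.29 without the 2 farthest arrays, so this relation rested on those arrays. The smallest adjusted p of the 10 was 0.494 for Pearson's r and 0.592 for Spearman's rho. Most of the 10 relations involve Shh, which was close to the control level at day 0. With 9 arrays, a relation could thus easily be missed, and no conclusion is drawn.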

How the data were processed

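The authors deposited log2 expression values per probe set, made with GCRMA per the submitters' processing notes; the sources used here give neither its version nor which arrays were normalized jointly. GCRMA shrinks low signals towards background and so compresses or exaggerates folds of dim probe sets. Per the labels' protocols, RNA from frozen whole skin was amplified with an Ovation kit before hybridization, with biotin as the label. Of 45101 probe sets 35890 stood in the platform annotation, 34958 with 1 symbol and 932 with several, which were left out. Gene IDs of 34754 probe sets matched RefSeq (GRCm38.p6), with 0 symbols changed.

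Groups came from the labels. The test was limma 3.58.1 (R 4.3.3), with a mean for each of 4 groups on 16 arrays, mouse as random block (consensus correlation 0.0983), 12 residual and 2.86 prior degrees of freedom, and Benjamini-Hochberg adjustment within each of 7 comparisons. Errors are SE and intervals 95%. Folds are powers of 2 of log2 differences. Array medians lay between 3.75 and 3.94; the number of arrays limits precision. The labels place both biopsies on 1 mouse, which pairs 7 mice; deviations of the 2 arrays correlated above 0.1 in 2 of 7 pairs (-0.183 to 0.178). On simulated data over 12082 genes, limma recovered 88% of genes changed by 2 log2 units for both inhibitors against DMSO, 78% for ruxolitinib against DMSO and 86% for tofacitinib against DMSO. The simulated noise was independent between arrays, with no mouse effect. Shares for smaller changes are not given, so these do not cover most differences of hedgehog genes from DMSO.

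The hedgehog genes, pathway list and markers were chosen with earlier results of these data known. Named were all 9 genes, the pathway genes that passed (at most 10, smallest p first), and 5 nearest genes by group means for Shh, Gli1 and Ptch1, leaving out predicted-gene symbols; Hhip was not tested and has none. Alternatives changed the filter, the probe set, the mouse term, the arrays fitted, the normalization, and left out each day-5 array.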

Additional observations from a re-analysis of the deposited data

Results flagged for a closer look

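Shh was singled out because the groups differed in its day-5 level by the fitted test, with a log2 difference of 3.82 for ruxolitinib against DMSO and of 3.23 for both inhibitors against DMSO. Shh was tested only because its inhibitor arrays passed the filter, and without the filter neither call passed. Shh was also singled out because every mouse of an inhibitor group rose from its own day 0 and every DMSO mouse was lower. The DMSO changes were small, -0.20 and -0.16 in mice 2 and 3, and neither value of mouse 3 exceeded the highest control value. The mean change was 2.23 under tofacitinib and -0.18 under DMSO, and 3.16 under ruxolitinib and -0.18 under DMSO. The difference between these changes did not pass in the fit with mouse as fixed block (limma adjusted p = 0.99994 for tofacitinib, 0.265 for ruxolitinib and 0.519 for both inhibitors), and the untested case of single mice rests on 2 DMSO mice.

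Among the 9 day-0 arrays, none stood apart on the probe sets chosen for the 9 hedgehog genes. On the second probe set of Smo, mouse 1 at 5.30 lay far above the next array at 4.21, while chance gives such a gap in about 1 in 20 groups. The Gapdh difference between 3' and 5' probe sets was also highest on that array among the 9 (1.47, the next being 1.06).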

How the results depend on the processing

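Of the 17 differences of hedgehog genes that passed, 226 of 253 values under the alternatives passed in the same direction, 27 kept the direction and did not pass, and 0 changed sign. Many of these alternatives left out an array outside the groups compared, which can change a difference only slightly. No day-0 array was left out, so the total overstates how firmly the calls hold. Against DMSO, the Shh call was kept in 8 of 14 alternatives for both inhibitors and in 7 of 14 for ruxolitinib. Of the 566 alternative values of the 39 differences that did not pass, 29 changed sign, in 15 differences, and 3 passed, all 3 for Smo under ruxolitinib against day 0 (limma adjusted p = 0.0364 with only these groups, 0.0473 without tofacitinib mouse 7 and 0.0380 without mouse 8). The cause was not tested.

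With the paired fit, the replicate block of mouse as a fixed effect, 3699 genes passed for DMSO against day 0 and 1322 for ruxolitinib against day 0 (1 hedgehog gene). In that block 0 genes and 0 hedgehog genes passed for ruxolitinib, tofacitinib or both against DMSO, or between the drugs, in limma (1892, 428, 1038 and 1491 genes at an unadjusted p under 0.05). Under the block, signs changed for Gli1 (0.073 for DMSO and -0.22 for ruxolitinib against day 0, -0.29 for ruxolitinib and -0.023 for both inhibitors against DMSO, 0.53 between the drugs), Gli2 (0.0081 for DMSO against day 0, 0.37 between the drugs) and Gas1 (-0.23 between the drugs). With no replicate block, the gene counts stayed within 1.5 times.

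For ruxolitinib against DMSO, 63 genes passed; 111 did with the mean of probe sets, 3 with only the groups compared, and 0 hedgehog genes did with only these groups, with no filter or with the filter at 6. For tofacitinib against DMSO, 20 passed; 11 did with no filter, 11 with the filter at 6, 5 with averaged probe sets and 0 with only these groups (847 unadjusted). For both inhibitors against DMSO, 113 passed; 71 did with no filter (0 hedgehog genes) and 0 with only these groups (1531 unadjusted). Between the drugs 3 passed and 0 with only these groups (369 unadjusted).

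Leaving out each day-5 array in turn gave ranges, lowest to highest. Against day 0 these were 3966 to 6339 genes and 5 to 6 hedgehog genes for tofacitinib, 1996 to 4467 and 2 to 5 for ruxolitinib, and 3468 to 6484 and 3 to 5 for DMSO. Against DMSO they were 0 to 126 for tofacitinib, 1 to 259 and 0 to 1 for ruxolitinib, and 0 to 374 and 0 to 1 for both, and between the drugs 1 to 9.

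Among differences that did not pass, leaving out single arrays also gave ranges across 0. These were -0.0083 to 0.53 for Gli1 under tofacitinib against day 0 and -0.0012 to 0.10 for Ptch1 under ruxolitinib against day 0. Between the drugs they were -0.22 to 0.20 for Gli1, -0.27 to 0.0086 for Gli2, -0.63 to 0.11 for Gli3 and -0.37 to 0.39 for Gas1. Against DMSO they were -0.0050 to 0.65 for Gli3 and -0.072 to 0.51 for Smo under tofacitinib, and -0.15 to 0.61 for Gas1 under ruxolitinib. Averaged probe sets changed signs for Gli3 under tofacitinib against DMSO (-0.059) and Gas1 between the drugs (-0.028). Other probe sets did so for Boc (0.025) and Gas1 (-0.12 and -0.050) between the drugs, and for Gli3 (-0.16) and Smo (-0.10) under tofacitinib against DMSO. Quantile normalization changed no call of a hedgehog gene. Probe sets at control level were left out of these checks.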
